A study of Mus musculus with 39 samples.

Results

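Toll-like receptors and their cofactors were followed through 4 normal stages of mouse B-cell maturation and in leukemic pre-B cells of MLL-AF4 mice. The 9 genes, Tlr1, Tlr2, Tlr4, Tlr6, Tlr7, Tlr9, Cd180, Ly86 and Myd88, were chosen by name, as every probe set that the platform annotation gives to one of those symbols alone. They hold 12 of the 20380 probe sets that carry a single gene symbol and 9 of the 12393 genes on the array. Tlr4 has 2 probe sets and Tlr7 has 3, and the brightest probe set of a gene, averaged over the 39 arrays, stands for it below.

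The series holds 39 Affymetrix expression arrays of sorted cells, each made from amplified total RNA. Normal cells came from adult mouse bone marrow and were sorted on B220, CD43, IgM and IgD. There were 6 arrays of pro-B cells (B220+ CD43+ IgM- IgD-), 8 of pre-B cells (B220+ CD43- IgM- IgD-), 6 of immature B cells (B220+ CD43- IgM+ IgD-) and 3 of mature B cells (B220+ CD43- IgM+ IgD+). The 16 leukemic arrays hold cells sorted with the pre-B gate. For 5 of them (A992, A1322, A1507, A46 and 270) the labels state that the mouse had received pIpC, a synthetic double-stranded RNA. The label of array 116 names pre-B cells of a Mll-AF4stop knock-in mouse without stating leukemia, and the array stands in the leukemic group by its cell type label. The labels do not say what drives expression of the knock-in allele in the other leukemic mice, give no strain and no age beyond adult, and do not tie each normal array to an animal, so the p-values below measure the spread between these arrays.

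Toll-like receptors are membrane proteins that recognise conserved molecules of microbes. Some sit on the cell surface and bind lipids and lipoproteins, others sit in endosomes and bind nucleic acids, and most of them signal through the adaptor MyD88 to NF-kB and interferon regulatory factors. In B cells these receptors can drive activation alongside the antigen receptor, and the receptor-like surface protein Cd180, with its partner Ly86 (MD-1), modulates the response to lipopolysaccharide.

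Values are log2 of the deposited intensities, so a difference of 1 is a doubling. Differences were tested with limma across all 12393 genes, and the threshold for a call was a p of 0.05 after Benjamini-Hochberg adjustment. Probe sets of genes that belong to other tissues, such as olfactory receptors and hair keratins, had array means of up to 4.75 at their 90th percentile, and a group mean under that limit is called near background. The median log2 intensity of an array lay between 6.36 and 6.76 across the series. The mean of 7 B-lineage markers, among them Cd79a, Cd79b and Ebf1, lay between 9.68 and 11.5 on every normal array. On the leukemic arrays that mean lay between 9.05 and 10.3, apart from array 122 at 7.88.

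Several arrays also carried RNA of genes that mark other cells. Markers of plasmacytoid dendritic cells (11 of 14 listed genes measured, among them Bst2, Ccr9 and Klra17, and also Spib and Ly6d, which B cells express too) had a mean of 11.2 to 11.5 on pro-B arrays 2, 4 and 6 and of 9.94 to 10.4 on pro-B arrays 1, 3 and 5. On the pre-B arrays the same mean was 6.52 to 8.78. Markers of monocytes and macrophages (13 of 14 measured) had a mean of 9.49 to 9.82 on immature B arrays 2, 3 and 6 and 10.4 on mature B array 3, against 6.25 to 7.16 on the other immature and mature B arrays. Among the leukemic arrays that mean was highest on arrays 122 (9.68), 15 (8.82), 117 (8.44) and 153 (7.72). Itgam, a defining marker of myeloid cells, was near background in all 5 groups (mean 3.45 to 3.93), as was Xcr1, a marker of conventional dendritic cells (mean 3.07 to 3.42). Calls of single members between neighbouring stages and in leukemic cells are given below with and without the arrays that stood apart in these markers. In such bulk samples, fewer cells of a type and less RNA per cell cannot be told apart.

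**Figure D1:**
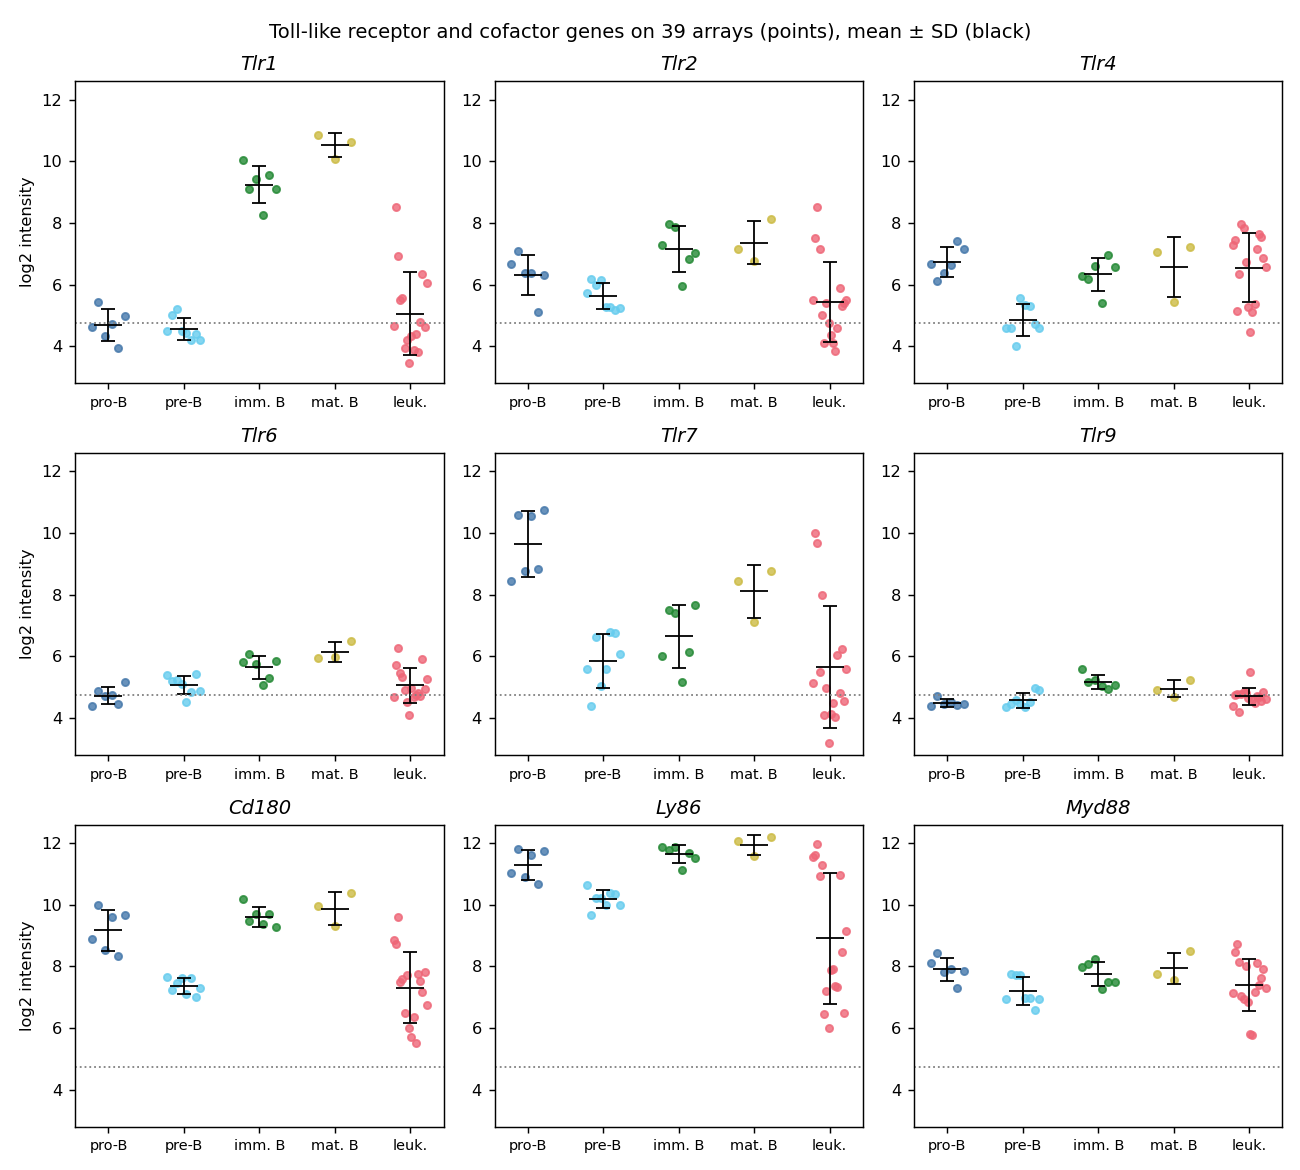
Log2 intensity (vertical axes) of the 9 genes on each of 39 arrays, by group (pro-B, pre-B, immature B, mature B, leukemic). Points are arrays, black bars are the group mean ± SD, and the dotted line is the background limit of 4.75. Tlr1 was near that line in pro-B and pre-B cells and above 8 on every immature and mature B array, Tlr7 was highest on the pro-B arrays, and the leukemic arrays spread most for Ly86.

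From pro-B to pre-B cells 5 of the 9 genes (Tlr4, Tlr7, Cd180, Ly86 and Myd88) fell and 0 rose, where 15.7% of all genes were called lower and 17.9% higher. None of these 5 was called with the plasmacytoid marker mean as a covariate. That mean did not overlap between pro-B (lowest 9.94) and pre-B arrays (highest 8.78), and with it the calls over all genes fell from 4162 to 602. In the main fit the other 4 members were not called, with Tlr2 at -0.69, Tlr1 at -0.13, Tlr9 at 0.08 and Tlr6 at 0.35. From pre-B to immature B cells 7 of the 9 rose and 0 fell, where 10.9% of all genes were called higher and 8.70% lower, and Tlr7 and Myd88 were not called. The median difference of the 9 genes was -0.71 at the first of these steps and 1.45 at the second, against 0.11 and -0.06 over all genes. From immature to mature B cells only Tlr1 rose and 0 fell, where 1.96% of all genes were called higher and 3.29% lower. Over the whole path, mature B against pro-B cells, 3 rose and 0 fell, where 13.6% were called higher and 14.6% lower. These comparisons share arrays, so their differences are not independent of each other.

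**Figure D2:**
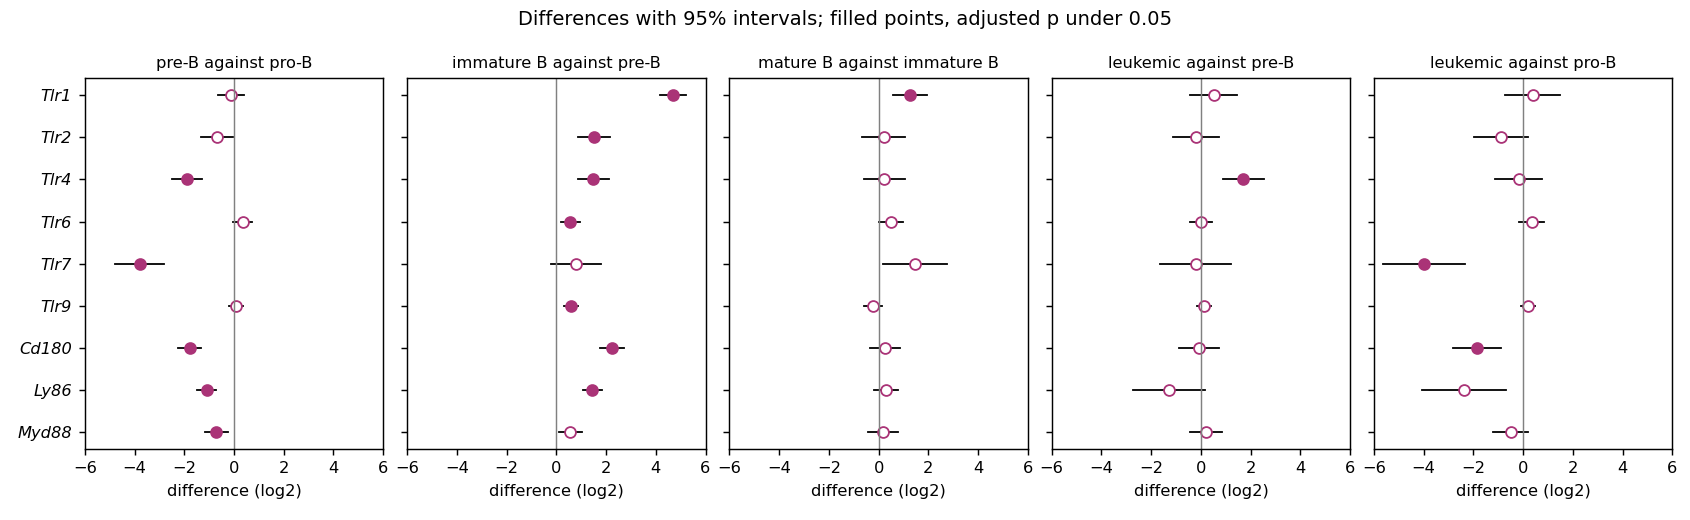
Difference in log2 intensity (horizontal axes) of each gene in 5 comparisons, with the 95% interval from limma as a line. Filled points have an adjusted p under 0.05. The 7 filled points of immature B against pre-B cells all lie above 0, with Tlr1 at 4.69, and the 5 of pre-B against pro-B cells all lie below 0, with Tlr7 at -3.79.

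Tlr1, which pairs with Tlr2 at the cell surface to recognise triacylated bacterial lipopeptides, showed the widest step of any gene on the array between pre-B and immature B cells. The bases before its annotated start are shown because of that step (RefSeq, GRCm38.p6, chr5:64933601-64933808, minus strand, 5′ to 3′). The capitals mark a match to the E-box CAGGTG, and 42 further bases that lie inside the annotated gene span are left out.

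Tlr1: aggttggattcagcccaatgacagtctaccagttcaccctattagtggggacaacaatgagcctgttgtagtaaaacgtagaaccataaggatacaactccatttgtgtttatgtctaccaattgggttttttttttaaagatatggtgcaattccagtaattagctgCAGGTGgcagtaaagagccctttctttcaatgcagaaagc

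That E-box lies 82 to 77 bases before the start of transcription, and a match to the PU.1 core AGGAAGT lies 22 to 16 bases before it, in the stretch left out. Of 32851 RefSeq promoters searched over the same 250 bases on both strands, 17.2% held the E-box and 7.69% held the PU.1 core. The neighbouring gene Tlr6, which starts on the same strand of chromosome 5, held the PU.1 core on the opposite strand, 62 to 56 bases before its first listed start. It also held 2 overlapping matches to the interferon-response core GAAANNGAA, which 7.13% of promoters held. Both listed starts of Tlr6 lie inside its annotated span. The bases before the second listed start of Tlr6, and of Tlr1, held no E-box, PU.1 core or interferon-response core. Those before the second start of Tlr6 held 3 matches to the TATA box TATAAA on the opposite strand, a motif that 12.4% of promoters held. The motif matches are a description of letters only.

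On the 6 pro-B arrays Tlr1 read 4.61, 5.45, 4.34, 4.72, 3.95 and 4.98. On the 8 pre-B arrays it ranged from 4.20 to 5.20 with a median of 4.45. Both groups overlapped and both means, 4.68 ± 0.52 (SD, n = 6) and 4.55 ± 0.36 (SD, n = 8), were near background. The immature B arrays read 10.05, 9.09, 9.41, 8.24, 9.56 and 9.09, all 6 above every pre-B array. The mature B arrays read 10.84, 10.09 and 10.62, all 3 above every immature B array. Immature B exceeded pre-B cells by 4.69 (SE 0.25, limma adjusted p = 8.7e-12), rank 1 of 12393 genes by absolute difference. The fold of 25.8 is not resolved in size, because the pre-B mean is near background. Immature B arrays with high and low monocyte markers did not separate for Tlr1, and without immature B arrays 2, 3 and 6 and mature B array 3 the difference was 4.73 (limma adjusted p = 2.8e-08). The mature B mean of 10.52 ± 0.39 (SD, n = 3) exceeded the immature B mean of 9.24 ± 0.60 (SD, n = 6) by 1.28 (SE 0.33, limma adjusted p = 0.022). That second step was not called without mature B array 1 (1.11, limma adjusted p = 0.173), without mature B array 3 (1.22, limma adjusted p = 0.108), or without the 4 arrays rich in monocyte markers (1.18, limma adjusted p = 0.342).

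Tlr2, the common partner of Tlr1 and Tlr6, changed less. The pro-B arrays read 6.66, 7.07, 6.39, 6.36, 5.11 and 6.31, and the pre-B arrays ranged from 5.17 to 6.18 with a median of 5.50. Among the immature B arrays, values were 7.29, 7.96, 7.86, 5.96, 6.84 and 7.03, of which 5 lay above every pre-B array. The mature B arrays read 7.15, 6.77 and 8.13. Immature B exceeded pre-B cells by 1.53 (SE 0.31, limma adjusted p = 8.3e-04). The difference from pro-B to pre-B cells, -0.69, was not called (limma adjusted p = 0.0893). That difference was called with the run described below as a covariate (-0.69, limma adjusted p = 0.0182). Without pro-B array 5, the lowest of its group, it was called too (-0.93, limma adjusted p = 0.0225), but within neither run alone. Immature B arrays 2 and 3, with monocyte marker means of 9.79 and 9.82, held its highest immature B values. Without immature B arrays 2, 3 and 6 and mature B array 3 its rise read 1.07 and was no longer called (limma adjusted p = 0.0557). With the monocyte and neutrophil marker mean as a covariate the calls of Tlr2 (0.78, limma adjusted p = 0.103), Tlr4 (0.93, limma adjusted p = 0.0643) and Tlr6 (0.25, limma adjusted p = 0.555) were lost, and those of Tlr1, Tlr9, Cd180 and Ly86 held.

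Tlr6, which pairs with Tlr2 to recognise diacylated lipopeptides, was low in every group. Its means were 4.73 ± 0.28 (SD, n = 6) in pro-B, 5.07 ± 0.30 (SD, n = 8) in pre-B, 5.64 ± 0.38 (SD, n = 6) in immature B and 6.14 ± 0.32 (SD, n = 3) in mature B cells. The immature B arrays read 5.82, 6.07, 5.74, 5.06, 5.30 and 5.85, and 4 of the 6 lay above every pre-B array. The difference between those groups was 0.57 (SE 0.18, limma adjusted p = 0.0298), and it was not called when any one of 7 arrays was left out (pre-B 5, 6 or 8, or immature B 1, 2, 3 or 6; limma adjusted p between 0.0531 and 0.0905). Without immature B arrays 2, 3 and 6 and mature B array 3 it read 0.32 (limma adjusted p = 0.471), and it was called within neither run described below. Mature B exceeded pro-B cells by 1.41 (SE 0.24, limma adjusted p = 8.3e-05), with all 3 mature arrays above every pro-B array. Tlr1 was the gene most like Tlr6 on the array, with r = 0.80 over 39 arrays and 0.83 over the 23 normal arrays. Probe letters were not used, so hybridization between these related genes was not tested.

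Tlr4, the lipopolysaccharide receptor, was low in pre-B cells and higher on both sides of that stage. The pro-B arrays read 6.66, 6.10, 6.39, 6.64, 7.41 and 7.16. The pre-B arrays ranged from 4.0 to 5.58 with a median of 4.66, all 8 below every pro-B array. For immature B cells the arrays read 6.29, 6.18, 6.61, 5.39, 6.95 and 6.58, of which 5 lay above every pre-B array, and the mature B arrays read 7.04, 5.45 and 7.21. Pre-B cells were lower than pro-B cells by a difference of -1.89 (SE 0.30, limma adjusted p = 3.6e-05), and immature B exceeded pre-B cells by 1.49 (SE 0.30, limma adjusted p = 6.4e-04). Both calls held without the marker-rich arrays, the first at -1.98 without pro-B arrays 2, 4 and 6 (limma adjusted p = 9.3e-04) and the second at 1.37 without immature B arrays 2, 3 and 6 and mature B array 3 (limma adjusted p = 0.0223). The second probe set of Tlr4 (r = 0.76 with the first over the 39 arrays) had smaller differences. It read -0.31 from pro-B to pre-B cells, which was not called (limma adjusted p = 0.270), and 0.62 from pre-B to immature B cells (limma adjusted p = 0.0442). The drop at the pre-B stage therefore rests on 1 of the 2 probe sets.

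Tlr7, an endosomal receptor for single-stranded RNA, was the member highest in pro-B cells relative to the other stages. The pro-B arrays read 8.45, 10.57, 8.76, 10.54, 8.83 and 10.75. They fell into 2 sets: arrays 2, 4 and 6 at 10.54 to 10.75 and arrays 1, 3 and 5 at 8.45 to 8.83, the same division as in the plasmacytoid dendritic cell markers. The division was not particular to those markers. Means of conventional dendritic cell, monocyte and macrophage, T and NK cell and interferon response genes showed it too, and that of neutrophil markers did not. Over the 6 pro-B arrays Tlr7 had r = 0.92 with the plasmacytoid mean and 0.97 with the conventional dendritic cell mean. Cd180 and Ly86 divided in the same way. The pre-B arrays ranged from 4.39 to 6.80 with a median of 5.84, all 8 below every pro-B array. Pre-B cells were lower by a difference of -3.79, or 13.8-fold (SE 0.48, limma adjusted p = 1.7e-06). Against pro-B arrays 1, 3 and 5 alone the difference was -2.82 (limma adjusted p = 7.7e-04). With the plasmacytoid marker mean as a covariate, which also takes up differences between the groups, it was -0.46 and not called (limma adjusted p = 0.624). Under the same covariate none of the other 4 falling members was called. Cd180 read -0.96 (limma adjusted p = 0.203), Ly86 -0.04 (limma adjusted p = 0.946) and Myd88 -0.42 (limma adjusted p = 0.607). Tlr4 read -1.92 (SE 0.60, limma adjusted p = 0.0662) against -1.89 (SE 0.30) without the covariate, so its size held and its SE widened.

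Of the 11 plasmacytoid markers, 9 fell from pro-B to pre-B cells, with Lair1 at -4.19, Cd7 at -3.64 and Pacsin1 at -3.46, 1 rose (Spib), and Ly6d, at -0.43, was not called. Their median difference was -3.18. T and NK cell markers moved likewise, 12 of 13 falling with a median of -3.04, and 7 of 13 monocyte markers fell with a median of -1.48. What share of the Tlr7 signal of the pro-B gate came from other cells was not tested.

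After the pre-B stage Tlr7 was higher again on some arrays only. The immature B arrays read 6.0, 7.50, 7.41, 5.18, 6.15 and 7.67. Arrays 2, 3 and 6, the 3 rich in monocyte markers, lay at 7.41 to 7.67, above every pre-B array, and the other 3 at 5.18 to 6.15. The difference of 0.79 from pre-B cells was not called (limma adjusted p = 0.280), and without those 3 arrays and mature B array 3 it was -0.08. The mature B arrays read 8.43, 7.13 and 8.77, and the 2 arrays without raised monocyte markers (1 and 2) were among them at 8.43 and 7.13. Mature B exceeded immature B cells by 1.46 on the representative probe set, which was not called (limma adjusted p = 0.225). When every probe set was fitted as its own row, the second Tlr7 probe set read 1.64 (limma adjusted p = 0.0413) and the third read 1.42 (limma adjusted p = 0.0728), so the probe sets differ in this call. From pro-B to mature B cells the representative probe set had a difference of -1.54, which was not called (SE 0.63, limma adjusted p = 0.0683). The other 2 probe sets, each fitted as its own row, read -1.48 (limma adjusted p = 0.0209) and -1.38 (limma adjusted p = 0.0255) and were called lower.

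Tlr9, an endosomal receptor for unmethylated CpG DNA, was near background in pro-B and pre-B cells and little above it in immature and mature B cells. Its means were 4.49 ± 0.12 (SD, n = 6) in pro-B, 4.57 ± 0.24 (SD, n = 8) in pre-B, 5.17 ± 0.23 (SD, n = 6) in immature B and 4.94 ± 0.27 (SD, n = 3) in mature B cells. On immature B arrays it read 5.60, 5.15, 5.23, 5.04, 4.94 and 5.06, and 5 of the 6 lay above every pre-B array. The rise of 0.60 (SE 0.14, limma adjusted p = 0.0028) starts from a pre-B mean under the background limit. Without the 4 arrays rich in monocyte markers it read 0.62 (limma adjusted p = 0.0283).

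Cd180 and Ly86 encode a surface receptor and the secreted protein bound to it, and their levels ran in parallel over the normal stages. The bases before their starts are shown because the genes moved together, from the same chromosome but far apart on it (RefSeq, GRCm38.p6, plus strand, 5′ to 3′; Cd180 at chr13:102693297-102693546 and Ly86 at chr13:37345095-37345344).
Cd180: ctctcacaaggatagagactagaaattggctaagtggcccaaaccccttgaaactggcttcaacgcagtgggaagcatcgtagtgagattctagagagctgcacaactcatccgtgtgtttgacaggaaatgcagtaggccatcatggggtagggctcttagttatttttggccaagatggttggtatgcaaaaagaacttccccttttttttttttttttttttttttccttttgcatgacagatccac
Ly86: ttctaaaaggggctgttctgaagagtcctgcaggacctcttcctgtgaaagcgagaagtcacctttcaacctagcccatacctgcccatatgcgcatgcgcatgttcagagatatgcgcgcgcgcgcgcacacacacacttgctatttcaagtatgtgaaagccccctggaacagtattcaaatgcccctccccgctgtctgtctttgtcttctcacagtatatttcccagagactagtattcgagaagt

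Both stretches are in lower case throughout, since neither held the PU.1 core, the interferon-response core, the E-box or the TATA box TATAAA (12.4% of promoters) on either strand. RefSeq promoters were matched for 7 of the 9 genes, and Tlr4 and Tlr7 are named only.

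On the pro-B arrays Cd180 read 8.91, 9.99, 8.52, 9.59, 8.35 and 9.66. The pre-B arrays ranged from 7.0 to 7.67 with a median of 7.38, all 8 below every pro-B array. The immature B arrays read 10.18, 9.48, 9.70, 9.37, 9.70 and 9.28, all 6 above every pre-B array, and the mature B arrays read 9.95, 9.32 and 10.37, which overlapped them. Cd180 fell from pro-B to pre-B cells by 1.79 on the log2 scale (SE 0.23, limma adjusted p = 2.0e-06) and rose from there to immature B cells by 2.24 (SE 0.23, limma adjusted p = 1.1e-07). Both calls held without the marker-rich arrays, at -1.21 without pro-B arrays 2, 4 and 6 (limma adjusted p = 4.5e-04) and 2.37 without immature B arrays 2, 3 and 6 and mature B array 3 (limma adjusted p = 1.5e-05).

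Ly86 showed the same course at a higher level. The pro-B arrays read 11.03, 11.82, 10.90, 11.62, 10.66 and 11.74, and the pre-B arrays ranged from 9.68 to 10.65 with a median of 10.22, all 8 below every pro-B array, the nearest at 10.65 against 10.66. Immature B arrays gave 11.88, 11.77, 11.88, 11.13, 11.68 and 11.53, all 6 above every pre-B array, and the mature B arrays read 12.06, 11.58 and 12.21. Ly86 fell by 1.11 (SE 0.18, limma adjusted p = 5.1e-05) and then rose by 1.45 (SE 0.18, limma adjusted p = 1.8e-06) on the log2 scale. Without the same marker-rich arrays these differences were -0.67 (limma adjusted p = 0.0124) and 1.37 (limma adjusted p = 4.2e-04). Mature B exceeded pro-B cells by 0.65 (SE 0.24, limma adjusted p = 0.0409), a call that was lost without any one of pro-B arrays 1, 3 or 5 or mature B arrays 1 or 3 (limma adjusted p between 0.0733 and 0.162), and without the 4 arrays rich in monocyte markers (0.52, limma adjusted p = 0.194). Over the 23 normal arrays Cd180 and Ly86 correlated with r = 0.97, across points that share 4 group means, and over the 16 leukemic arrays with r = 0.68.

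Myd88, the adaptor shared by most of these receptors, was well above background in every group and changed little. The pro-B arrays read 8.10, 8.45, 7.81, 7.92, 7.31 and 7.84, and the pre-B arrays ranged from 6.60 to 7.75 with a median of 6.97, 5 of the 8 below every pro-B array. It fell by 0.71 on the log2 scale (SE 0.22, limma adjusted p = 0.0195), and the call was lost without pro-B array 2 (-0.60, limma adjusted p = 0.0582) and without pro-B arrays 2, 4 and 6 (-0.54, limma adjusted p = 0.175). The immature B arrays read 7.99, 8.07, 8.25, 7.25, 7.48 and 7.49, and their difference of 0.56 from pre-B cells was not called (limma adjusted p = 0.0840). That difference was called with the run described below as a covariate (0.56, limma adjusted p = 0.0111). Without immature B array 4 it was called too (0.66, limma adjusted p = 0.0425), but within neither run alone. The mature B arrays read 7.75, 7.57 and 8.51.

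The arrays fall into 2 runs of consecutive sample numbers, of 22 and 17 arrays, which the labels do not call batches. They differed in the actin 3′ minus 5′ probe set difference, 1.29 ± 0.084 (SD, n = 22) and 0.80 ± 0.139 (SD, n = 17), and all mature B arrays were in the second. Within each run Tlr7, Tlr4, Cd180 and Ly86 were called lower in pre-B than in pro-B cells, Tlr7 by -3.73 and -3.85. Within each run Tlr1, Tlr2, Tlr4, Cd180 and Ly86 were called higher in immature B than in pre-B cells, Tlr1 by 4.66 and 4.72. Myd88 was called lower in pre-B than in pro-B cells within the first run (-0.82) and not within the second (-0.60, limma adjusted p = 0.133), and Tlr9 was called higher in immature B than in pre-B cells within the second (0.87) and not within the first (0.33, limma adjusted p = 0.406). Within the second run the Tlr1 difference between mature and immature B cells was 1.0 and not called (limma adjusted p = 0.135).

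Other genes of the pathway were taken from 3 lists. Of 7 genes for accessory proteins and trafficking, 4 rose and 0 fell from pre-B to immature B cells: Cd14, the lipopolysaccharide co-receptor, by 1.74, Slc15a4, an endolysosomal transporter, by 1.26, Ly96 (MD-2), the partner of Tlr4, by 0.81, and Cnpy3. Unc93b1, which carries endosomal receptors out of the endoplasmic reticulum, read 0.69 and was not called (limma adjusted p = 0.0827). Cd14, which monocytes also express, starts from a pre-B mean of 3.70, near background, and ranged from 3.67 to 7.30 on the immature B arrays. Without immature B arrays 2, 3 and 6 and mature B array 3 its difference was 0.20 (limma adjusted p = 0.832), and of the 4 only Slc15a4 was called (1.21, limma adjusted p = 0.0028). Of 11 NF-kB and interferon regulatory factor genes 3 rose at that step, Rel by 0.81, Ikbkb by 0.66 and Nfkbie by 0.62, and 0 fell. Irf7 read 0.66 and was not called. Of 10 genes for adaptors and proximal signalling only Traf6, a ubiquitin ligase downstream of MyD88, was called, and it fell by 0.67 on the log2 scale. Without the same 4 arrays 2 of the 11 NF-kB list genes and 0 of the adaptor list were called higher, and 0 and 1 lower. Their median differences were 0.69, 0.31 and -0.10, against -0.06 over all genes.

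From pro-B to pre-B cells the same lists were mixed. Of the accessory genes 3 of 7 fell and 0 rose, Cd14 by 1.93, Cnpy3 by 0.63 and Lbp by 0.61 on the log2 scale. Of the adaptor list 4 of 10 rose and 2 fell, among them Tirap at 0.98, Traf6 at 0.92 and Peli1 at 0.70. In the NF-kB list 5 of 11 rose and 1 fell, with Irf7 at -2.23, Nfkb2 at 1.02 and Rel at 0.91. Without pro-B arrays 2, 4 and 6 the accessory list had 1 gene called lower (Lbp, -0.98), Cd14 at -1.37 not being called (limma adjusted p = 0.195). The adaptor list then had 4 called higher and 0 lower, and the NF-kB list 4 and 1. Of the other receptors 3 of 6 were measured, and Tlr5 and Tlr8 were near background in every group. Tlr3, which binds double-stranded RNA, was called in 1 comparison, mature B against pro-B cells, at 1.64 (limma adjusted p = 0.0231).

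In leukemic cells set against normal pre-B cells of the same gate, Tlr4 was the only member called. It was higher, 1 of 9, where 8.50% of all genes were called higher and 7.53% lower. Its leukemic arrays ranged from 4.47 to 7.97 with a median of 6.79, and 11 of the 16 lay above every pre-B array. The difference was 1.70 (SE 0.40, limma adjusted p = 0.0037), or 3.26-fold. The second probe set read 0.62 and was not called (limma adjusted p = 0.0956). The 5 leukemic arrays that overlapped the pre-B range for Tlr4 were 122, 224, 226, 227 and 228. Over the 16 leukemic arrays Tlr4 and the monocyte marker mean had r = 0.17 and rho = 0.18, and r was 0.60 without the 2 arrays farthest from the median marker mean. Without leukemic arrays 15, 117, 122 and 153 the difference was 1.64 (limma adjusted p = 0.0056). Within the first run it was 1.49 and not called (limma adjusted p = 0.172), and within the second it was 2.07 (limma adjusted p = 0.0046). Against pro-B cells the Tlr4 difference was -0.18 (95% interval -1.12 to 0.76).

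The other members differed more among leukemic arrays than from normal pre-B cells. Ly86 ranged from 6.01 to 11.96 with a median of 8.18: 10 arrays lay below every pre-B array and the other 6 (15, 116, 117, 122, 153 and A1322) above every one, with no array inside the pre-B range. Its leukemic SD was 7.16 times its pre-B SD, that of Cd180 4.45 times and that of Tlr1 3.75 times, where the median over all genes was 1.31 times. The pre-B mean of Tlr1 is near background, so its ratio is not resolved in size. The remaining members had smaller ratios, from 1.15 (Tlr9) to 2.98 (Tlr2). The mean difference for Ly86 was -1.28 (SE 0.71, limma adjusted p = 0.265). Without leukemic arrays 15, 117, 122 and 153 it was -2.13 and was called (limma adjusted p = 0.0106). These 4 arrays, chosen by marker levels after seeing the data, all lay above every pre-B array, so leaving them out had to lower the leukemic mean. Cd180 ranged from 5.52 to 9.59 with a median of 7.51, 6 arrays above and 6 below every pre-B array, and its difference was -0.06 (95% interval -0.87 to 0.75), or -0.41 without the same 4 arrays (limma adjusted p = 0.508).

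Tlr7 ranged from 3.20 to 10 with a median of 5.05 on the leukemic arrays. Arrays 117 (10), 122 (9.67) and 153 (8.0) lay above every pre-B array and 4 lay below. Its mean difference from pre-B cells was -0.21 (SE 0.69, limma adjusted p = 0.898). Without arrays 15, 117, 122 and 153 it was -1.09 and was called lower (limma adjusted p = 0.0470). These arrays, chosen by marker levels after seeing the data, include the 3 above every pre-B array, so leaving them out had to lower the leukemic mean. Tlr1 ranged from 3.45 to 8.52 with a median of 4.64, and Tlr2 from 3.85 to 8.51 with a median of 5.35. The highest Tlr1 value was on array 117 and the highest Tlr2 value on array 122. Without the same 4 arrays neither was called against pre-B cells, Tlr2 at -0.73 (limma adjusted p = 0.0611) and Tlr1 at -0.01 (limma adjusted p = 0.988). On array 117, 8 of the 9 genes were above every pre-B array, and on array 122 and array 15 it was 7 and 6. On arrays 224, 226, 227, 154 and 228 it was 0 or 1, and 4 to 6 genes lay below every pre-B array. The same counts over all genes were not made, so whether these numbers are particular to the members was not tested.

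**Figure D3:**
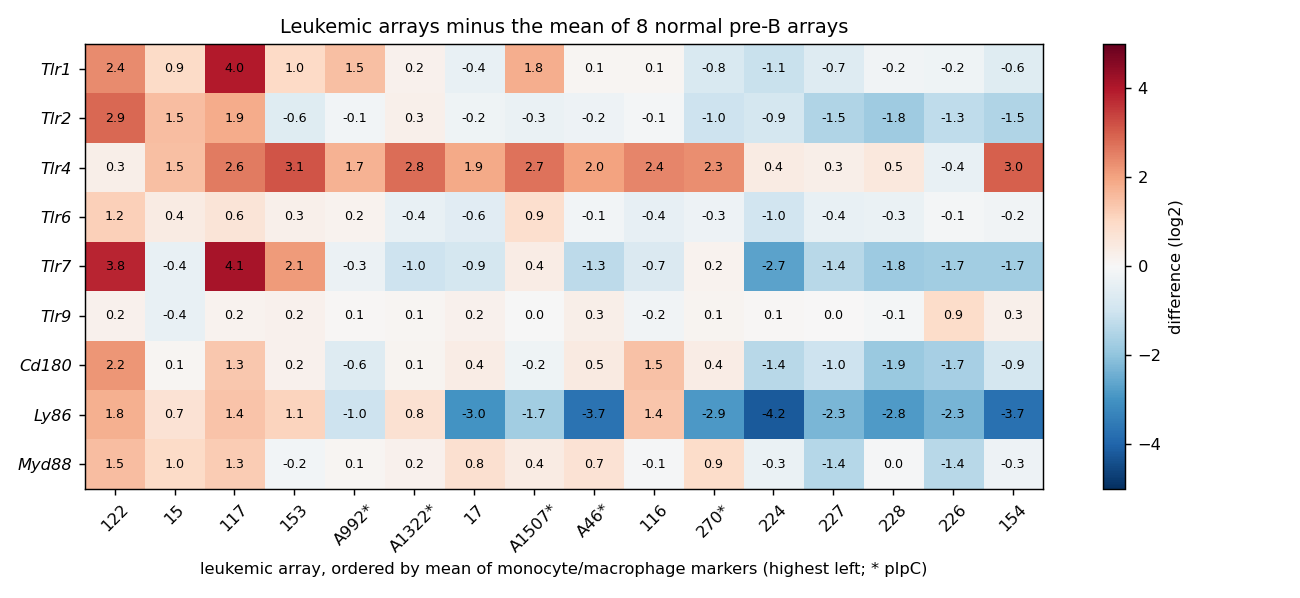
Difference in log2 intensity of each gene (rows) on each of the 16 leukemic arrays (columns) from the mean of the 8 normal pre-B arrays, with red above and blue below. Arrays run from the highest monocyte and macrophage marker mean on the left (122) to the lowest on the right (154), and an asterisk marks pIpC. Tlr4 is red on most arrays but near 0 on array 122 and on arrays 224, 226, 227 and 228, which lie together near the right end. Tlr2 and Tlr7 are red mainly at the left.

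Over the 16 leukemic arrays the members tracked the monocyte and macrophage marker mean to different degrees. Tlr2 had r = 0.94 (rho = 0.87), or 0.87 without the 2 arrays farthest from the median marker mean. For Tlr7 r was 0.80, for Tlr1 0.78, for Ly86 0.78, for Cd180 0.75, for Tlr6 0.74 and for Myd88 0.72. Tlr9, near background, had r = -0.28. These relations were not particular to monocyte markers. With the conventional dendritic cell marker mean r was higher for Tlr7 (0.88), Tlr1 (0.83) and Tlr6 (0.81). It was lower for Tlr2 (0.85), Ly86 (0.76), Cd180 (0.70) and Myd88 (0.53). Tlr7 also had r = 0.78 with the plasmacytoid marker mean. These are descriptions over arrays that share normalization, and some members are themselves expressed by monocytes. Array 122, which had the highest monocyte and macrophage marker mean of the 16, also had the lowest B-lineage mean of the series, 7.88. The part of other cells in these levels was not tested.

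**Figure D4:**
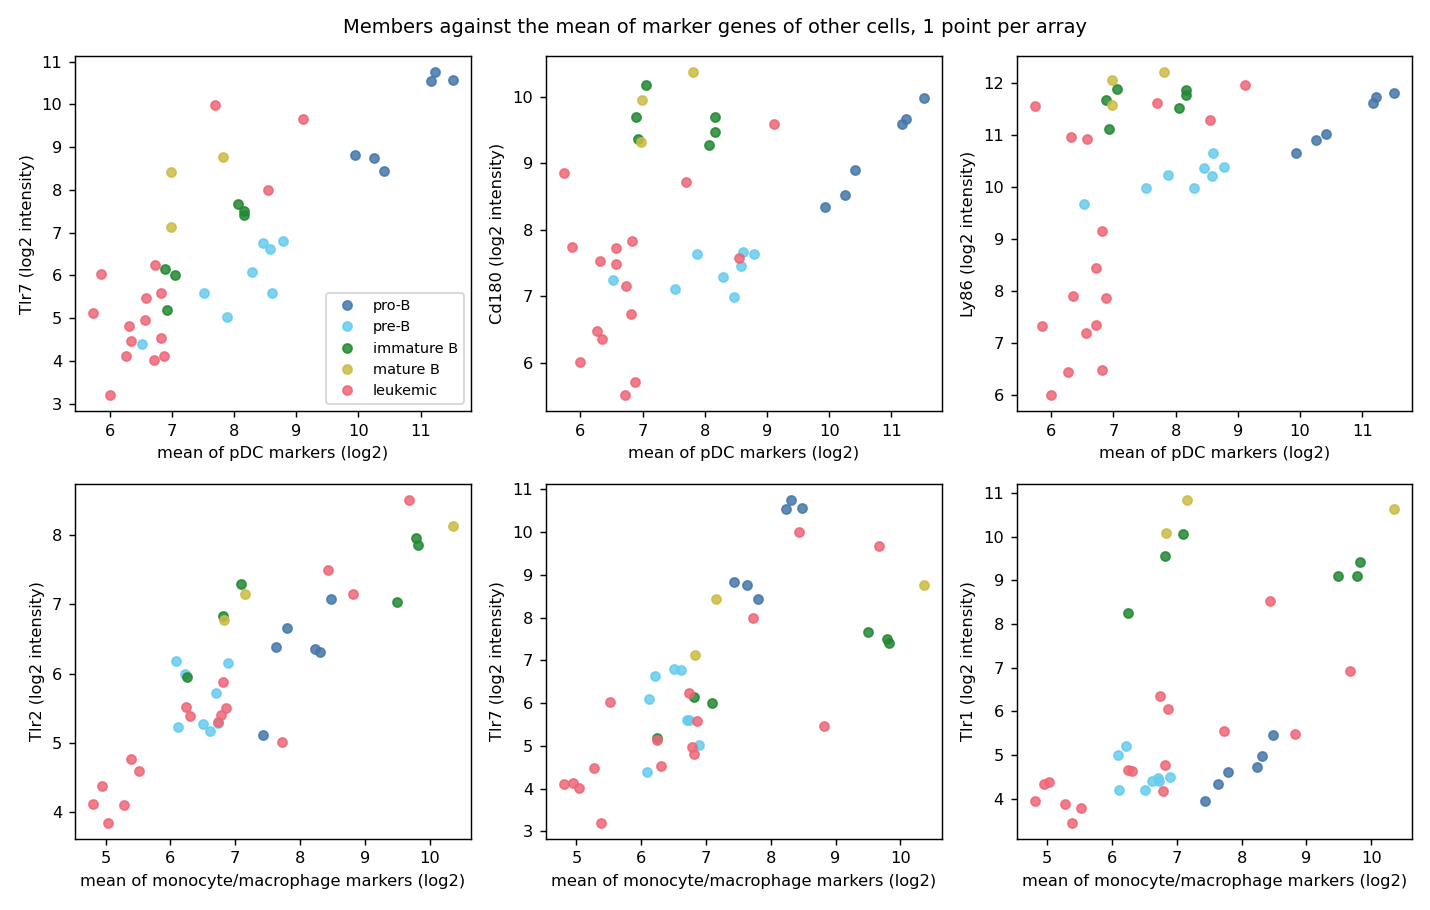
Log2 intensity of Tlr7, Cd180 and Ly86 against the mean of plasmacytoid dendritic cell markers (top row), and of Tlr2, Tlr7 and Tlr1 against the mean of monocyte and macrophage markers (bottom row), 1 point per array, coloured by group. Pro-B arrays form 2 sets at the right of the top row, Tlr2 climbs with the monocyte markers across groups, and Tlr1 is high on immature and mature B arrays at any marker level.

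Against normal pro-B cells, 2 of the 9 members were lower and 0 higher in leukemic cells, where 7.63% of all genes were called lower and 8.11% higher. Tlr7 was lower by a difference of -4.0, or 16-fold (SE 0.80, limma adjusted p = 0.0015), with 14 of 16 leukemic arrays below every pro-B array. Cd180 was lower by -1.85 (SE 0.47, limma adjusted p = 0.0119), with 13 of 16 below. Ly86 missed the threshold at -2.39 (SE 0.82, limma adjusted p = 0.0503), and was called when any one of leukemic arrays 15, 116, 117, 122, 153 or A1322 was left out. Without leukemic arrays 15, 117, 122 and 153, 4 members were called lower, Tlr7 at -4.88 (limma adjusted p = 8.5e-08), Ly86 at -3.23 (limma adjusted p = 0.0015), Cd180 at -2.20 (limma adjusted p = 8.8e-04) and Tlr2 at -1.42 (limma adjusted p = 0.0035). In that setting the number called over all genes went from 1950 to 3407, and the 4 arrays were chosen by marker levels after seeing the data. With the 4 arrays kept, Tlr2 read -0.88 and was not called (limma adjusted p = 0.232). All 11 plasmacytoid markers were lower in the same comparison, with a median of -3.76. Against pro-B arrays 1, 3 and 5 alone neither Tlr7 (-3.03, limma adjusted p = 0.198) nor Cd180 (-1.28, limma adjusted p = 0.328) was called. Within the first run alone neither was called (Tlr7 -4.26, limma adjusted p = 0.0803; Cd180 -2.01, limma adjusted p = 0.166), and within the second both were (-4.01 and -1.44).

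Several genes of the 3 pathway lists were lower in leukemic than in pre-B cells. Over all genes 7.53% were called lower and 8.50% higher. Unc93b1 fell by 1.28 on the log2 scale (limma adjusted p = 0.0048), 1 of 7 accessory genes. Of the adaptor list 5 of 10 fell, with Pik3ap1 at -1.26, Peli1 at -0.59 and Traf6 at -0.59. Of the NF-kB list 4 of 11 fell, with Nfkbie at -1.30, Nfkbia at -0.82 and Rel at -0.77, and 0 genes of these 3 lists rose. Without leukemic arrays 15, 117, 122 and 153 the genes called lower numbered 3 of 7, 3 of 10 and 4 of 11, with 0 higher. In the main fit the medians of the 3 lists were -0.33, -0.29 and -0.36, against -0.01 over all genes. Of the 7 B-lineage markers 3 were called lower and 0 higher in the same comparison, with a median of -0.67. Whether the lower levels are particular to the pathway was not tested.

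Leukemic arrays from mice that received pIpC were set against the other leukemic arrays. By limma 0 of 12393 genes were called, 0.00% of the array, and 603 had an unadjusted p under 0.05, among them 0 members. Tlr4 read 7.16 on average on the 5 pIpC arrays and 6.27 on the other 11, a difference of 0.89 (95% interval -0.25 to 2.03, limma adjusted p = 0.933). On the pIpC arrays Tlr4 ranged from 6.58 to 7.63, inside the range of 4.47 to 7.97 on the others.

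The genes whose pattern was most like that of each member were named by their correlation over the 39 arrays. For Tlr1 they were Zfp318, Cd83 and Ikbkb, each with r = 0.91 (0.95, 0.97 and 0.95 over the 23 normal arrays). For Tlr2 they were Ctsa (0.90), Man2b1 (0.89) and Ifitm3 (0.88). For Tlr4 the nearest was St3gal6 at 0.76, so no gene followed it closely. For Tlr7 they were Evi2a and Inpp4a (0.91 each) and Itsn1 (0.89), for Cd180 Ncf1 (0.93), Ctsz (0.90) and Lat2 (0.89), and for Ly86 Cybb (0.91), Neat1 (0.90) and Hexa (0.90). Myd88 was followed by Ccdc12 (0.90), Rrbp1 (0.88) and Elmo2 (0.86), and Tlr9 by Sspn (0.72), Sox5 (0.70) and AF067061 (0.69).

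The genes lie at chr5:64924680-64933600 (Tlr1), chr5:64953092-64970942 (Tlr6), chr3:83836272-83841824 (Tlr2), chr4:66827551-66846581 (Tlr4), chrX:167303380-167330574 (Tlr7), chr9:106222598-106226876 (Tlr9), chr13:102693547-102706631 (Cd180), chr13:37345345-37419036 (Ly86) and chr9:119335934-119340018 (Myd88) in RefSeq GRCm38.p6. The position of each probe set within its gene is not given in the sources used here.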

How the data were processed

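The authors deposited intensity values on a linear scale, from 3.39 to 18549, made with RMA per the submitters' processing notes. Its version, and whether all arrays were normalized together, are not given in the sources used here. RNA was extracted with Trizol and amplified with the NuGEN Ovation system, per the labels. The values were taken to log2 with no offset. Of 22690 probe sets, 64 controls, 691 with several symbols and 1555 with none were left out. The probe set with the highest mean over the 39 arrays stood for each gene. Differences were fitted with limma 3.58.1 in R 4.3.3 (lmFit, eBayes with an intensity trend): the 4 normal groups in 1 fit, each leukemic comparison over its own 2 groups, and pIpC within the leukemic group. On simulated data a change of 1 on the log2 scale was recovered for 55 to 82% of changed genes, by comparison, and a change of 2 for 87 to 99%. No 2 arrays held identical values. Precision is limited by the number of arrays. Genes named from pathway and marker lists were up to 3 called with the largest difference and 1 uncalled, and for likeness the 3 with the highest correlation (predicted genes left out); Cnpy3 and Spib were named after their values were seen. The members and lists were chosen with earlier results of these data known. Alternatives were other normalizations, filters, probe set rules, covariates, runs and left-out arrays.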

Additional observations from a re-analysis of the deposited data

How the results depend on the processing

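Counts are of the 9 genes called. For leukemic against pre-B cells the 1 call became 0 within the first run, 2 with the plasmacytoid marker mean as a covariate and 3 without leukemic arrays 15, 117, 122 and 153. For leukemic against pro-B cells the 2 calls became 0 within the first run and without pro-B arrays 2, 4 and 6, and 4 without leukemic arrays 117 and 122 or without 15, 117, 122 and 153. For pre-B against pro-B cells the 5 calls became 3 with all 39 arrays in 1 fit and 0 with the plasmacytoid covariate. For immature B against pre-B cells the 7 became 4 with the monocyte and neutrophil marker mean as a covariate. For mature against immature B cells the 1 call became 0 with all 39 arrays in 1 fit, within the second run and without immature B arrays 2, 3 and 6 and mature B array 3, and 2 with the plasmacytoid covariate. For mature B against pro-B cells the 3 became 5 with quantile normalization and with either covariate. The covariates also take up differences between the groups. Leaving out 1 array at a time gave 0 to 1 calls for mature against immature B, 2 to 6 for mature B against pro-B, 6 to 8 for immature B against pre-B, 4 to 6 for pre-B against pro-B, 2 to 3 for leukemic against pro-B and 1 for leukemic against pre-B. Where a difference was called in the main fit or in the alternative, signs turned in 5 cases. With the plasmacytoid covariate these were Tlr7 in leukemic against pre-B (1.71), against pro-B (2.55) and in mature B against pro-B cells (2.81). Cd180 in leukemic against pro-B turned likewise (0.49), and with the monocyte and neutrophil covariate so did Tlr2 in leukemic against pro-B (1.40). Differences called in neither fit turned sign too, among them Ly86 in leukemic against pro-B, from -2.39 to as high as 2.16. The cause was not tested. Of the other alternatives for single genes, 1769 stayed on their side of the threshold, including those uncalled sign changes, 41 gained a call and 52 lost one.

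The labels give groups the same replicate numbers but state no shared animal, litter or batch, and not every same-numbered pair deviated together. Of 27 pairs, 16 had deviations correlated over 0.1 (r from -0.74 to 0.66), and 9 after taking out the run (-0.68 to 0.56). The 6 pairs of pro-B and immature B arrays were all over 0.1 (0.22 to 0.45), and -0.16 to 0.21 after taking out the run. The numbers were therefore not taken as pairing. With a replicate block the count for mature against immature B cells was 0, and for the other normal comparisons 5, 7 and 2. Over all genes the number called ranged from 1001 (first run) to 3149 (every probe set its own row) for leukemic against pre-B, 117 (plasmacytoid covariate) to 3407 (without leukemic arrays 15, 117, 122 and 153) for leukemic against pro-B, 602 (plasmacytoid covariate) to 6224 (every probe set) for pre-B against pro-B, 1314 (first run) to 3726 (every probe set) for immature B against pre-B, 134 (without the 4 arrays above) to 1026 (run as a covariate) for mature against immature B, and 1685 (plasmacytoid covariate) to 5483 (every probe set) for mature B against pro-B. Against 0 for pIpC the count was 0 to 1, and 0 to 2 with 1 array left out. The arrays left out together were chosen after seeing the data, by their marker levels. No value could be had within the first run for mature B cells, which it does not hold. Probe sets near or little above background, Tlr9 and Tlr6 among them, limit what a difference in size means.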
